A study of Mus musculus with 16 samples.

Results

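Sites that gained PPARγ after rosiglitazone were taken from a PPARγ peak list of 3T3-L1 adipocytes, a mouse fibroblast line differentiated into fat cells in culture. The sites had to reach a PPARγ signal of 16.6 deposited units with rosiglitazone, which is 20 sequenced tags, and a log2 ratio of rosiglitazone to DMSO of 2 or more. The ratio was computed after adding 1 unit to both values. Of 30588 peaks, 1696 met the rule, which is 5.54% of all peaks and 14.0% of the 12097 peaks that reached the minimum. The sites were chosen by both PPARγ values, so the PPARγ values below describe them and are not tested.

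The study measured binding by chromatin immunoprecipitation followed by sequencing (ChIP-seq) on day 7 of differentiation, induced with dexamethasone, 3-isobutyl-1-methylxantine, insulin and serum. All cells received 0.1% DMSO, the solvent, for 1 h, with 1 μM rosiglitazone in the treated group and none in the control group. The columns used here give the signal of each of 4 proteins (PPARγ, C/EBPα, MED1, CBP) by treatment. A protein has a single column for either treatment, so its differences could not be set against replicates, and no p-values were computed. The labels list 2 PPARγ samples per treatment, but the PPARγ columns name no replicate, and whether they hold 1 or both is not known. All values come from this 1 cell line. The RNA polymerase II and input samples were left out. No gene annotation or genome of build mm9, which the coordinates follow, was used here, so sites are named by position only, and the labelled cell type was not checked against marker genes.

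PPARγ is a nuclear receptor that pairs with RXR on DNA and directs fat cell differentiation and lipid storage. Rosiglitazone, an antidiabetic thiazolidinedione, binds its ligand pocket and favours the exchange of corepressors for coactivators. MED1 is the Mediator subunit that contacts liganded nuclear receptors and links them to RNA polymerase II. CBP is a histone acetyltransferase recruited by many transcription factors. C/EBPα is a leucine zipper factor that acts with PPARγ at many fat cell enhancers.

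PPARγ at the gaining sites was low without the drug. The DMSO signal ran from 0 to 99.4 units with a median of 3.52, and the rosiglitazone signal from 16.6 to 443 with a median of 26.6. Over all PPARγ peaks the medians were 10.6 and 14.1. The minimum of the rule lies above the all-peak median in rosiglitazone. Its ratio favours low DMSO values, so both differences reflect the choice of sites. Only 266 of the 1696 reached the all-peak median in DMSO. In tags, 51 sites held 0 in the DMSO library, 571 held 1 to 3, 728 held 4 to 9, 222 held 10 to 19 and 124 held 20 or more. Most gaining sites therefore had a few tags in DMSO, and a minority were well occupied before the drug.

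**Figure D1:**
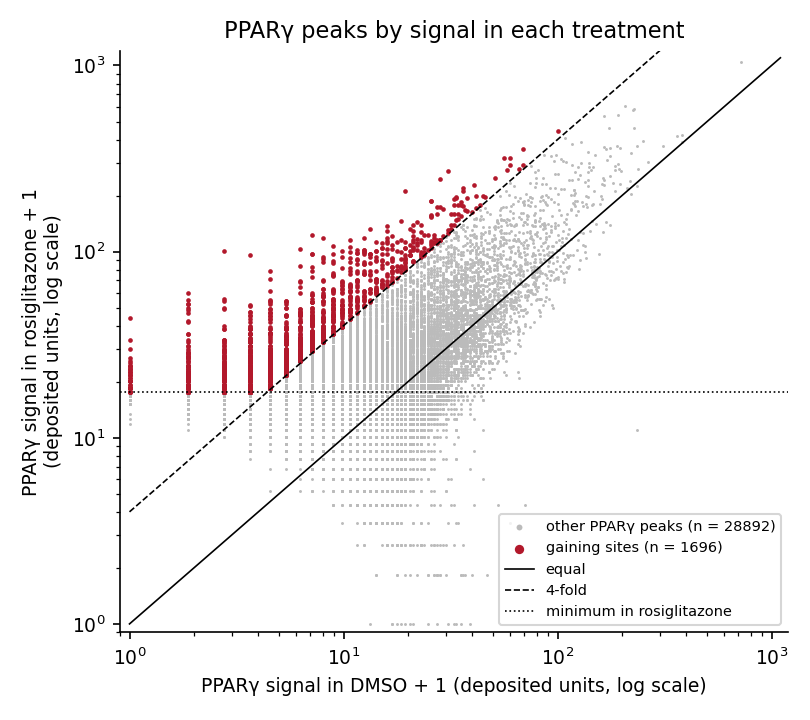
Each point is 1 PPARγ peak, with its signal in DMSO (x axis) and in rosiglitazone (y axis), both in deposited units plus 1 on log scales; the 1696 gaining sites are red. The red sites lie above the 4-fold line and the minimum of 16.6, and most stand at the far left, where the DMSO library held a few tags.

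The size of the gain was spread widely. The log2 ratio had a median of 2.49 (quartiles 2.22 and 2.90) and a maximum of 5.47. It was under 2.5 at 856 sites, 2.5 to 3 at 471 and 3 or more at 369, of which 76 reached 4. The sites at 3 or more averaged 2.45 units of PPARγ in DMSO, so their ratios rest on few tags. At the 51 sites without a PPARγ tag in DMSO, the size of the ratio depends on the added unit. The lower 95% counting limit of the PPARγ ratio lay above 2-fold at 1455 sites (85.8%) and above 4-fold at 280. It comes from the same PPARγ values that chose the sites, so these counts describe the set and are no evidence of a gain. How much of the spread in gain is counting error was not tested. These limits and the intervals given below cover counting error of the tags and not the spread between cultures.

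The rule separated sites that hardly differed. Just inside the log2 threshold, a site at chr9:43943601-43943787 and one at chr8:48619039-48619225 both held 8.79 units in DMSO and 38.2 in rosiglitazone. Just outside it, sites at chr2:167395539-167395725 and at chr8:129453100-129453286 both held 5.28 and 24.1. Just inside the minimum, a site at chr16:4003841-4004027 went from 1.76 to 16.6 units and one at chr17:5151997-5152183 from 0 to 16.6. Just outside it, sites at chr1:194632914-194633100 and chr1:182160068-182160254 went from 1.76 and 2.64 units to 15.8. Another 595 peaks passed the log2 threshold and missed the minimum. The set is thus the upper end of a continuous range. With the log2 ratio centred on the all-peak median of 0.50, 840 sites met the rule.

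The gaining sites were compared with 2 other sets that reached the same minimum. Steady sites had a log2 PPARγ ratio between -1 and 1, and 6383 peaks met that rule. Intermediate sites had a log2 ratio from 1 to under 2, and there were 3982. The rule did not use the C/EBPα, MED1 or CBP columns, which were measured at the same positions. Whether the proteins were measured in the same cultures is not known here. A difference between cultures that is shared by the proteins was not tested.

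MED1 was present at the gaining sites before the drug and stood higher after it. Its mean signal per site was 33.1 units in DMSO and 68.1 in rosiglitazone, with medians of 21.0 and 45.9. Summed over the sites, MED1 tags in rosiglitazone were 2.06 times the DMSO value (95% interval 2.01 to 2.11), from 16055 tags in DMSO and 15103 in rosiglitazone, where the DMSO library was 2.19 times deeper. Steady sites had a MED1 ratio of 1.37 (1.35 to 1.39), and all PPARγ peaks 1.63 (1.61 to 1.64). The MED1 ratio at gaining sites was 1.50 times that at steady sites (1.46 to 1.54). At equal PPARγ tags in rosiglitazone, over bins of tags, it was 1.44 times (1.404 to 1.48). The scaling of the MED1 libraries cancels in this comparison, but that of the PPARγ libraries sets which sites enter it. With the PPARγ log2 ratio centred on the median of all peaks it was 1.35 times (1.305 to 1.397).

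Between gaining and steady sites, the order of MED1 in DMSO was not that of PPARγ in DMSO. Mean PPARγ in DMSO was 6.37 units at gaining sites and 27.8 at steady sites, while mean MED1 in DMSO was 33.1 and 27.7, a MED1 ratio of 1.20 (1.17 to 1.22). Among sites with 20 to 24 PPARγ tags in rosiglitazone, mean MED1 in DMSO at gaining sites was 0.923 times that of steady sites (0.883 to 0.965). Among those with 80 to 159 tags it was 1.29 times (1.24 to 1.35). The median was higher at gaining sites in every bin of PPARγ tags, with 13.98 against 10.48 units at 20 to 24 tags and 52.42 against 34.95 at 80 to 159. At the 51 sites with no PPARγ tag in DMSO, MED1 averaged 18.4 units in DMSO, beside 18.3 units over all PPARγ peaks. MED1 had no tag in either library at 71 gaining sites (4.19%), against 9.34% of steady sites.

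**Figure D2:**
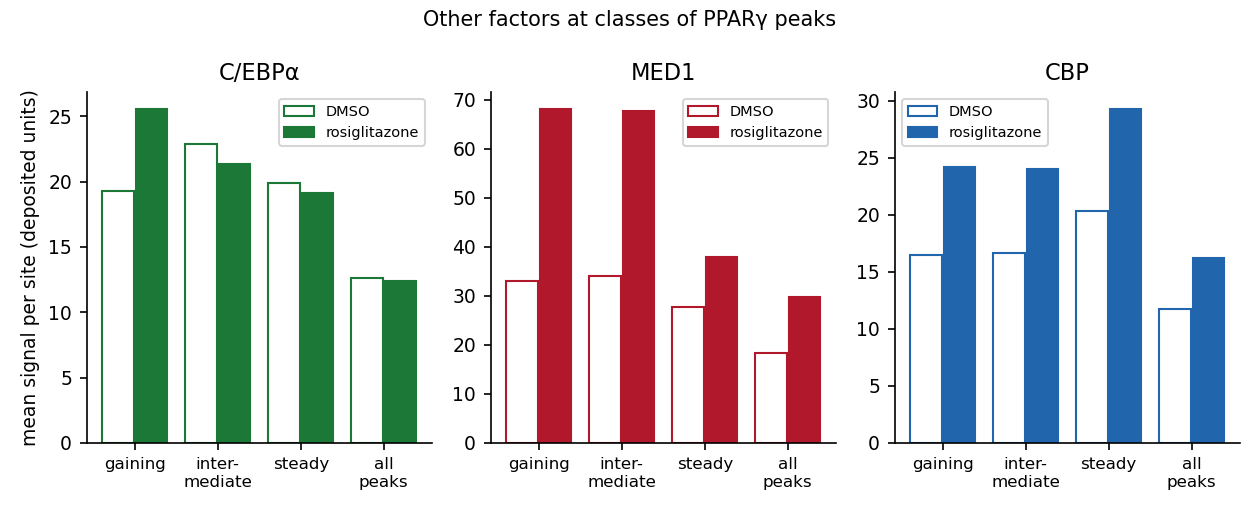
Mean signal per site in deposited units of C/EBPα, MED1 and CBP (panels) at gaining, intermediate, steady and all PPARγ peaks, with open bars for DMSO and filled bars for rosiglitazone (1 library each, so no error bar). MED1 at gaining sites stands at 33.1 and 68.1, mean C/EBPα at gaining sites at 19.3 and 25.6, and CBP is highest at steady sites in both treatments.

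The MED1 ratio stayed between 1.94 and 2.17 in all bins where the PPARγ log2 ratio was 1 or more. Among peaks that reached the minimum, the MED1 ratio was 0.694 (0.634 to 0.758) where the PPARγ log2 ratio lay between -1 and -0.5. It was 1.94 (1.91 to 1.98) at 1 to 1.5 and 2.05 (2.01 to 2.1) at 1.5 to 2. Within the gaining sites it was 2.0 (1.94 to 2.06) at 2 to 2.5, 2.17 (2.08 to 2.26) at 2.5 to 3 and 2.06 (1.96 to 2.17) at 3 or more. The gaining sites and the intermediate sites thus had nearly the same MED1 ratio, 2.06 and 1.99, and one was 1.04 times the other (1.01 to 1.07). Across 545 gaining sites with at least 20 MED1 tags, the Spearman rho between the PPARγ and the MED1 log2 ratio was -0.01 and the Pearson r -0.02. The sites share their libraries, and the rule truncates the PPARγ ratio.

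The MED1 ratio did differ with the height that PPARγ reached. It was 1.76 (1.66 to 1.87) at the 493 gaining sites with 20 to 24 PPARγ tags in rosiglitazone and 1.69 (1.59 to 1.80) at the 337 with 25 to 31. At the 201 sites with 80 to 159 tags it was 2.40 (2.30 to 2.51), and at the 54 with 160 or more 2.61 (2.45 to 2.78). Steady sites of the same heights had 1.41 (1.37 to 1.45), 1.38 (1.34 to 1.43), 1.43 (1.36 to 1.49) and 2.02 (1.92 to 2.14). In each of these bins the gaining sites had the higher MED1 ratio. The occupancy before the drug gave the same order, from 1.63 (1.35 to 1.96) at sites with 0 PPARγ tags in DMSO to 2.5 (2.39 to 2.62) at the 124 sites with 20 or more.

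Single sites are poorly measured for MED1, whose median was 6 tags per gaining site in each library. Of the 545 sites with at least 20 MED1 tags in both libraries together, 294 (53.9%, 49.7 to 58.2) were at least 2-fold higher with rosiglitazone, where 45.1% of all PPARγ peaks with as many tags were. At least 2-fold lower were 13 (2.39%), where 8.14% of all peaks were. The share of higher sites was 37.0% at steady sites and 50.5% at intermediate sites. At intermediate sites 2.5% were lower and at steady sites 16.1%, so few sites with lower MED1 were found in either set with a PPARγ gain.

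C/EBPα stood higher with rosiglitazone at the gaining sites, and not over the steady or the intermediate sites as whole sets. Steady sites whose PPARγ log2 ratio lay below 0 also had C/EBPα ratios above 1, given below with the bins. Its mean signal was 19.3 units in DMSO and 25.6 in rosiglitazone, with medians of 6.62 and 8.92. The ratio of summed tags was 1.33 (1.30 to 1.35), while it was 0.963 (0.953 to 0.973) at steady sites, 0.933 (0.921 to 0.944) at intermediate sites and 0.984 (0.978 to 0.990) over all PPARγ peaks. The C/EBPα ratio was 1.38 times that at steady sites (1.35 to 1.41), and at equal PPARγ tags in rosiglitazone also 1.38 times (1.35 to 1.41). In DMSO, mean C/EBPα at gaining sites was 0.969 times that of steady sites (0.951 to 0.986), and in rosiglitazone 1.34 times (1.32 to 1.35). The medians were 6.62 units at gaining and 8.83 at steady sites in DMSO, and 8.92 at both in rosiglitazone. The higher mean with the drug was thus not seen in the median site. At equal PPARγ height the mean in DMSO was lower at gaining sites in most bins. It ran from 0.703 times (0.666 to 0.742) at 160 tags or more to 1.07 times (1.02 to 1.12) at 25 to 31. The medians in these bins had the other order, with 44.16 units at gaining and 41.95 at steady sites in the former and 6.62 and 8.83 in the latter. In the remaining bins the median was lower at gaining sites.

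Unlike MED1, the C/EBPα ratio went on increasing with the PPARγ gain. It was 0.819 (0.807 to 0.832) where the PPARγ log2 ratio lay between 0.5 and 1, 0.866 (0.852 to 0.880) at 1 to 1.5 and 1.04 (1.02 to 1.06) at 1.5 to 2. Within the gaining sites it was 1.23 (1.20 to 1.26), 1.35 (1.3 to 1.4) and 1.65 (1.57 to 1.73) in the bins from 2, 2.5 and 3. On the other side, the C/EBPα ratio was 1.31 (1.26 to 1.37) at the 364 peaks with a PPARγ log2 ratio between -1 and -0.5 and 1.24 (1.21 to 1.27) at the 1257 between -0.5 and 0. A C/EBPα ratio above 1 was therefore not particular to the gaining sites. Across 527 gaining sites with at least 20 C/EBPα tags the Spearman rho of the log2 ratios was 0.15 and the Pearson r 0.16, a weak relation between single sites.

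**Figure D3:**
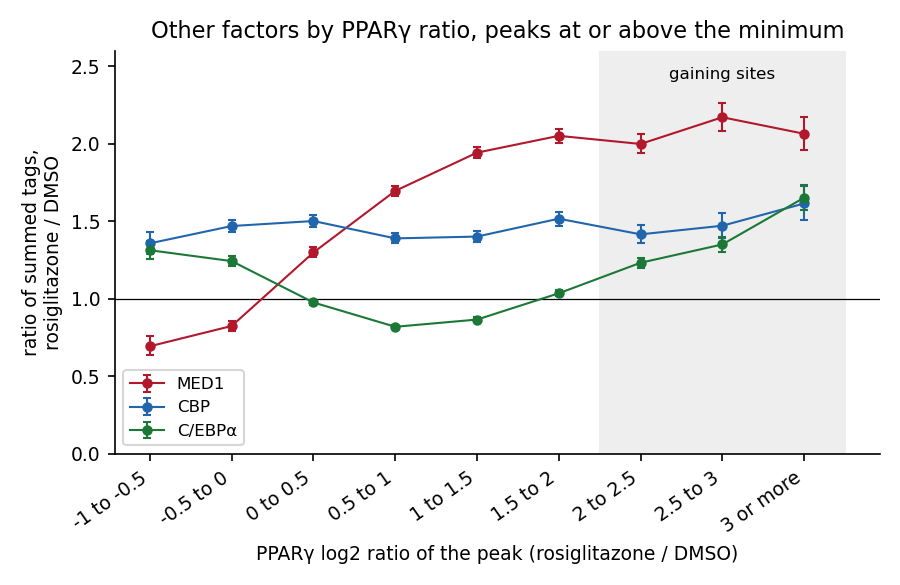
Ratio of summed tags, rosiglitazone over DMSO, of MED1, CBP and C/EBPα for PPARγ peaks that reached the minimum, in bins of the PPARγ log2 ratio, with exact 95% counting intervals; the grey area marks the gaining sites. MED1 levels off near 2 from a PPARγ log2 ratio of 1 upward, CBP stays between 1.36 and 1.61, and C/EBPα goes from 0.819 to 1.65 after a higher start on the left.

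Single sites showed the same difference for C/EBPα. Of 527 gaining sites with at least 20 C/EBPα tags, 152 (28.8%, 25.01 to 32.9) were at least 2-fold higher with rosiglitazone, against 15.4% of all PPARγ peaks with as many tags. At least 2-fold lower were 10 (1.898%), against 8.07%. The median log2 ratio was 0.44 at gaining sites, 0.09 at steady and -0.07 at intermediate sites. The ratio held at sites with and without a C/EBPα peak, at 1.32 (1.30 to 1.35) and 1.38 (1.29 to 1.46). The C/EBPα values without a peak were low, with means of 3.80 units in DMSO and 5.23 in rosiglitazone.

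The CBP ratio at gaining sites lay close to that at steady sites. Its mean signal was 16.5 units in DMSO and 24.2 in rosiglitazone, with medians of 8.84 and 12.1. The ratio of summed tags was 1.47 (1.42 to 1.51) at gaining, 1.45 (1.42 to 1.48) at intermediate and 1.44 (1.42 to 1.46) at steady sites. The ratio at gaining sites was 1.02 times that at steady sites (0.984 to 1.05), and 0.996 times at equal PPARγ tags (0.964 to 1.03). With a log2 threshold of 3 in the rule it was 1.12 times (1.04 to 1.20), so this near equality holds for the rule as set. Of 310 gaining sites with at least 20 CBP tags, 78 (25.2%, 20.4 to 30.4) were at least 2-fold higher, against 22.7% of all PPARγ peaks, and 16 (5.16%) were lower, against 5.7%. These shares lie near the background. The CBP library of DMSO was 2.74 times deeper, and the C/EBPα library of rosiglitazone 1.73 times deeper, than its counterpart. The part of depth in these ratios was not tested.

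The level of CBP differed from that of steady sites but lay close to that of intermediate sites. Gaining sites held 0.812 times the CBP of steady sites in DMSO (0.797 to 0.828) and 0.825 times in rosiglitazone (0.804 to 0.847). Against intermediate sites they held 0.992 times (0.972 to 1.01) in DMSO and 1.01 times (0.977 to 1.03) in rosiglitazone. All PPARγ peaks averaged less CBP, 11.7 units in DMSO and 16.2 in rosiglitazone. At equal PPARγ height the gap to steady sites was wider at low sites. It was 0.663 times (0.631 to 0.695) in DMSO and 0.647 times (0.604 to 0.694) in rosiglitazone at sites with 20 to 24 PPARγ tags, and 0.824 times (0.787 to 0.864) and 0.883 times (0.830 to 0.938) at sites with 80 to 159. Gaining sites thus held less CBP on average than steady sites with as much PPARγ in rosiglitazone. In the bin of 160 tags or more the mean was 0.933 times (0.872 to 0.998) in DMSO. In rosiglitazone it was 0.923 times (0.842 to 1.01), an interval that includes 1. The medians in that bin were higher at gaining sites, with 46.4 against 43.1 units in DMSO and 69.7 against 60.6 in rosiglitazone.

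C/EBPα peaks covered many of the gaining sites. Of the 1696, 849 (50.1%, 47.7 to 52.5) shared at least 1 bp with a peak of the C/EBPα list, against 50.8% of intermediate sites, 53.3% (52.1 to 54.6) of steady sites and 36.1% of all PPARγ peaks. The share followed PPARγ height. Among sites with 20 to 24 PPARγ tags in rosiglitazone, 35.7% (31.5 to 40.1) of gaining and 42.7% (40.5 to 44.9) of steady sites had a C/EBPα peak. Among the highest, with 160 tags or more, the order was the other way, with 50 of 54 gaining sites (92.6%, 82.1 to 97.9) and 71.0% (61.1 to 79.6) of the 100 steady sites. The share was 42.8% at gaining sites with a PPARγ log2 ratio of 3 or more. It was 27.5% where the DMSO library held no PPARγ tag and 79.8% where it held 20 or more.

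**Figure D4:**
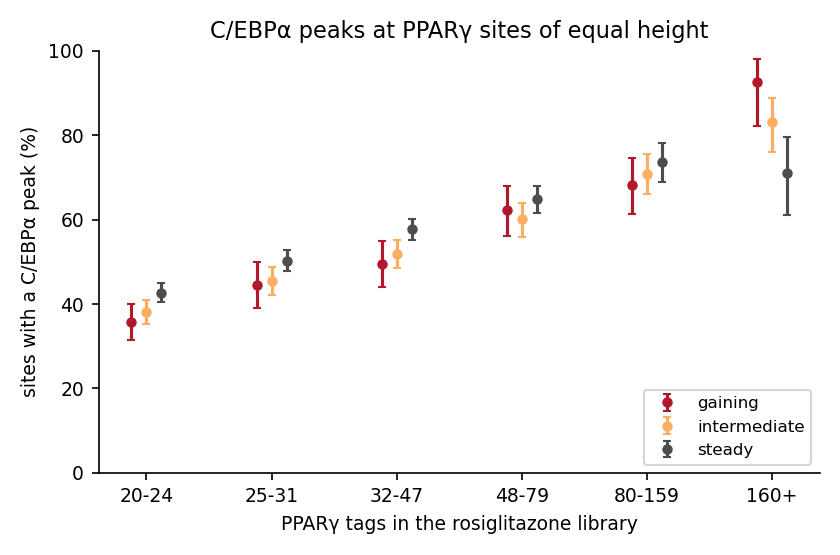
Percent of PPARγ sites that overlap a C/EBPα peak (y axis) by PPARγ tags in the rosiglitazone library (x axis) for gaining, intermediate and steady sites, with exact 95% intervals. The share climbs from 35.7% to 92.6% at gaining sites, below steady sites in every bin but the highest.

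Shared gaining and steady sites had like distances between peak centres. At gaining sites with a C/EBPα peak the peak centres lay a median of 39 bp apart, as at steady sites, and 27.8% lay under 20 bp apart, against 27.7% of shared steady sites. Among the 847 gaining sites without a C/EBPα peak, 175 (20.7%) had one centred within 1 kb, against 26.2% of such steady sites. The median focus ratio, the authors' fraction per peak, was 0.829 at gaining and 0.824 at steady sites.

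Gaining sites with a C/EBPα peak held more PPARγ, MED1 and CBP in both treatments. Mean PPARγ in rosiglitazone was 51.0 units with a C/EBPα peak and 32.1 without. Mean MED1 was 44.3 and 91.1 units in DMSO and rosiglitazone at the 849 sites with a C/EBPα peak and 21.9 and 45.1 at the 847 without. Its ratio was 2.06 in both (2.003 to 2.12 and 1.98 to 2.14). CBP was 22.9 and 32.7 units with, and 10.0 and 15.6 without, a C/EBPα peak, with ratios of 1.43 (1.38 to 1.48) and 1.56 (1.48 to 1.64). At steady sites the same split gave MED1 ratios of 1.32 (1.30 to 1.34) and 1.46 (1.43 to 1.49). Sites with a C/EBPα peak thus had more MED1 but also more PPARγ, and the split was not matched on PPARγ height. Among gaining sites the MED1 ratios with and without a C/EBPα peak had overlapping intervals.

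Gaining sites occurred on all 20 chromosomes of the list, in numbers from 20 on chromosome X to 152 on chromosome 11. As a share of the peaks that reached the minimum they ranged from 10.8% (7.77 to 14.4) on chromosome 13 to 18.1% (15.2 to 21.3) on chromosome 4 and 18.1% (15.6 to 20.9) on chromosome 11. The C/EBPα ratio at gaining sites lay above that of steady sites on 20 of 20 chromosomes, from 1.14 on chromosome 7 to 1.87 on chromosome 1, where steady sites ranged from 0.763 to 1.08. On chromosome X the interval of 0.951 to 1.79 included 1. The MED1 ratio was also above that of steady sites on 20 of 20, from 1.67 on chromosome 14 to 2.40 on chromosome 5. Steady sites ranged in MED1 from 1.18 on chromosome 13 to 2.03 on chromosome X. The CBP ratio was above that of steady sites on 12 of 20. The chromosomes share their libraries and are not replicates.

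**Figure D5:**
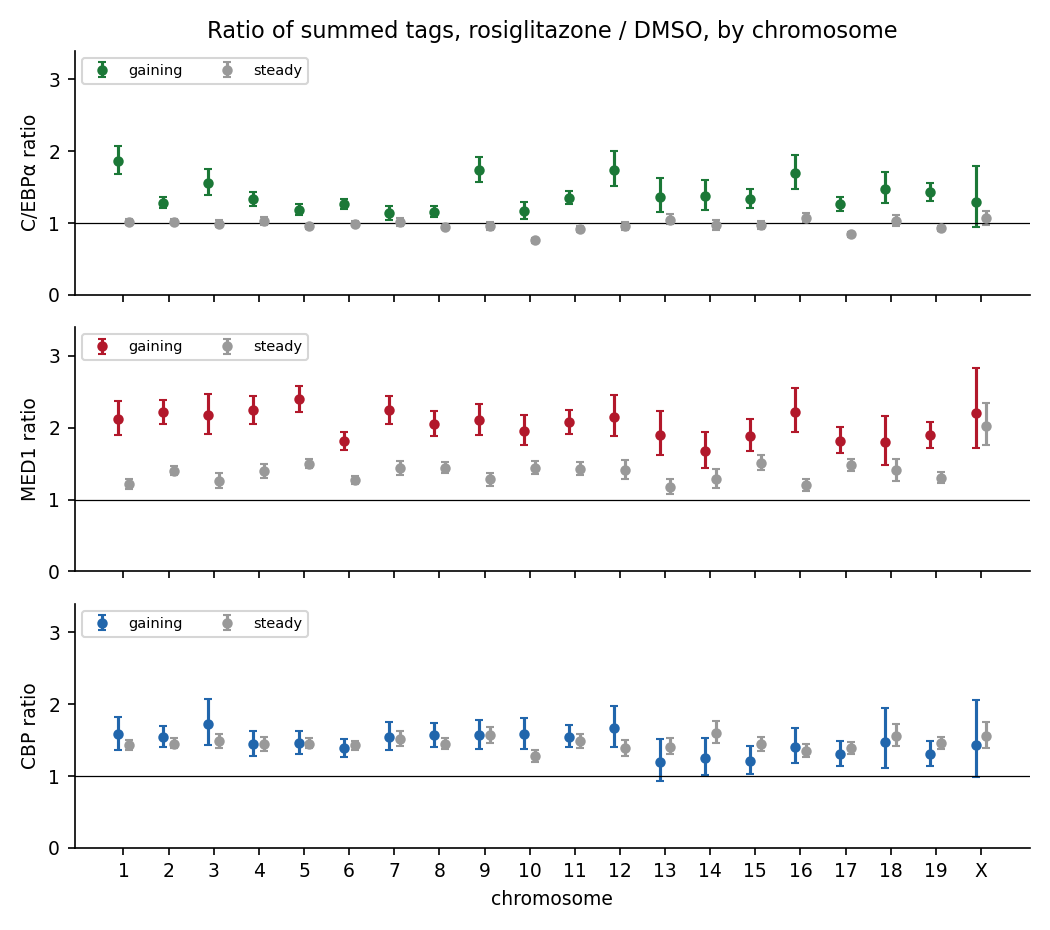
Ratio of summed tags, rosiglitazone over DMSO, of C/EBPα, MED1 and CBP (panels) by chromosome, at gaining sites (coloured) and steady sites (grey), with exact 95% counting intervals. C/EBPα and MED1 points of gaining sites lie above those of steady sites on all 20 chromosomes, while the CBP points interleave.

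Most gaining sites had another PPARγ peak nearby. Of the 1696, 65.4% (63.1 to 67.7) had another PPARγ peak within 10 kb, against 61.6% (60.4 to 62.8) of steady sites. Another gaining site lay within that distance at 240 (14.2%, 12.5 to 15.9). Of intermediate sites 21.1%, and of steady sites 25.8%, had another of their own set there, but those sets are larger and the shares cannot be compared directly. Chained at 10 kb, 1456 sites stood alone, 99 pairs formed, and 13 groups had 3 or 4 sites. The 1622 other peaks within 10 kb of a gaining site had a MED1 ratio of 1.73 (1.68 to 1.77) and a CBP ratio of 1.51 (1.47 to 1.56). Peaks farther away had 1.56 (1.55 to 1.58) and 1.36 (1.35 to 1.37), so the ratios beside a gaining site were 1.11 times (1.07 to 1.14) and 1.11 times (1.08 to 1.15) those farther away. The PPARγ ratio was also higher at these neighbours, 1.70 against 1.37 farther away, or 1.24 times (1.22 to 1.26). The MED1 and CBP ratios were not matched on it, so what nearness itself contributes was not tested. The C/EBPα ratio of those neighbours was 0.999 (0.976 to 1.02), well under the 1.33 of the gaining sites themselves.

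Of the 3 groups of 4 sites, the one with the most PPARγ tags lay at chr7:35954368-35961775. Its first site, chr7:35954368-35954554, went from 6.16 to 121 units of PPARγ, and MED1 there was 315 units before and 673 after the drug. The next, chr7:35957742-35957928, went from 32.5 to 196 units and held 259 and 796 units of MED1, the highest MED1 of all gaining sites with rosiglitazone. Those 2 sites were rich in MED1 before the drug, the first with little PPARγ and no C/EBPα tag in DMSO. Over the 4 sites the MED1 ratio was 2.66 (2.21 to 3.20), the C/EBPα ratio 1.45 (0.970 to 2.21) and the CBP ratio 1.26 (0.814 to 1.92).

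A group of 4 at chr9:63948369-63964942 had a MED1 ratio of 4.43 (3.00 to 6.65), a C/EBPα ratio of 3.17 (1.48 to 7.80) and a CBP ratio of 1.91 (1.10 to 3.26). Another at chr5:124442430-124457175 had 2.29 (1.48 to 3.54), 1.59 (0.878 to 3.01) and 1.73 (0.994 to 2.96). Of the groups of 3, one at chr5:123553700-123564427 had a C/EBPα peak at each site, and a MED1 ratio of 3.76 (2.89 to 4.92) with a CBP ratio of 1.19 (0.740 to 1.86). One at chr7:107614259-107623479 had no C/EBPα peak and a MED1 ratio of 1.56 (0.945 to 2.56), an interval that includes 1.

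The gaining site highest in PPARγ lay at chr6:115461540-115461726. PPARγ there went from 99.4 to 443 units, while MED1 stood at 786 units before and 627 after the drug (ratio 0.798, 0.612 to 1.03). It was also the gaining site richest in C/EBPα in DMSO, with 583 units, and had 773 with the drug (ratio 1.33, 1.15 to 1.54). The strongest site thus already held the most MED1 of any gaining site in DMSO, and the interval of its MED1 ratio includes 1.

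The next highest behaved otherwise. At chr17:26708442-26708628 PPARγ went from 67.7 to 353 units and MED1 from 164 to 383, a MED1 ratio of 2.33 (1.53 to 3.55), while C/EBPα was 450 and 501. At chr2:157956142-157956328 PPARγ went from 55.4 to 319 units and MED1 had a ratio of 3.28 (1.99 to 5.502). At chr8:97209919-97210105 PPARγ went from 58.9 to 293 units, and the MED1 ratio was 4.84 (2.75 to 8.81). C/EBPα was 28.7 and 30.6 units at the former of this pair and 19.9 and 20.4 at the latter. At chr6:88682130-88682316 PPARγ went from 67.7 to 289 and MED1 from 122 to 230 units. All 5 of these highest sites had a C/EBPα peak, with centres 1 to 57 bp away.

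Other sites high in MED1 with rosiglitazone were at chr10:76111651-76111837, where MED1 was 175 and 627 units and PPARγ 39.6 and 228, and at chr7:104567441-104567627, where MED1 was 133 and 536 and PPARγ 34.3 and 178. CBP ratios there were 2.22 (1.19 to 4.10) and 1.73 (0.883 to 3.29). Farther along the same chromosome, a gaining site at chr10:76127602-76127788 had the lowest MED1 ratio of the gaining sites with at least 20 MED1 tags. It held 199 and 45.9 units of MED1, a ratio of 0.230 (0.0812 to 0.533), with CBP at 133 and 194 units. PPARγ there went from 6.16 to 29.1 units, so these sites had MED1 ratios on opposite sides of 1.

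The largest PPARγ ratios came with mixed values of the other factors. At chr2:170285319-170285505 the PPARγ tags numbered 0 and then 52 with the drug, while MED1 had 3 and 0 tags and CBP none. At chr8:113249230-113249416 PPARγ had 2 and 120 tags, and MED1 went from 10.5 to 191 units, the highest MED1 ratio of the gaining sites with at least 20 MED1 tags. C/EBPα there had 0 and 11 tags. At chr2:165113869-165114055 PPARγ had 0 and 39 tags, but MED1 was already 97.8 units in DMSO and 91.8 in rosiglitazone. That site also held 28.7 and 19.1 units of C/EBPα. At chr3:51013873-51014059 PPARγ had 1 and 71 tags, with C/EBPα at 19.9 and 52.2 units, a ratio of 2.63 (1.26 to 6.15). At chr14:78250295-78250481 PPARγ had 0 and 35 tags, and C/EBPα had 1 and 3 tags, MED1 had 5 and 1, and CBP had 0 and 2.

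The gaining sites with the highest and lowest C/EBPα ratios differed widely. At chr7:72425949-72426135 the C/EBPα tags numbered 0 and then 33 with the drug (exact 95% lower limit of the ratio 4.88), and PPARγ went from 6.16 to 78.2 units. At chr4:134862593-134862779 C/EBPα had 0 and 20 tags (lower limit 2.85), with MED1 at 90.9 and 214 units. At chr17:5440266-5440452 C/EBPα again had 0 and 20 tags, but MED1 had 18 and 1. With at least 20 C/EBPα tags, the lowest ratios were 0.357 (0.164 to 0.747) at chr5:115057698-115057884, 0.407 (0.177 to 0.905) at chr3:68810071-68810257 and 0.412 (0.198 to 0.838) at chr7:126937860-126938046. All 6 of these sites overlapped a C/EBPα peak.

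Other sites stood out for one coactivator. MED1 went from 10.5 to 176 units at chr2:29377029-29377215, a ratio of 16.8 (5.07 to 87.3), and from 14.0 to 138 at chr7:134622328-134622514, a ratio of 9.85 (3.25 to 40.0). The MED1 ratio was 0.243 (0.0274 to 1.02) at chr10:60623424-60623610, an interval that includes 1, and 0.299 (0.0572 to 0.994) at chr6:58974423-58974609. Among sites with at least 20 CBP tags the highest CBP ratios were 7.06 (2.81 to 19.98) at chr1:37006409-37006595, 6.40 (2.31 to 20.3) at chr11:95048318-95048504 and 5.49 (2.07 to 16.1) at chr4:154510404-154510590. At these 3 sites MED1 was also higher, with ratios of 2.86, 5.00 and 3.28.

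With at least 20 CBP tags, the lowest CBP ratio was 0.125 (0.00302 to 0.772) at chr15:99494989-99495175, a site rich in C/EBPα with 261 and 176 units. At chr14:65258518-65258704 it was 0.261 (0.0297 to 1.07) and at chr17:12764261-12764447 0.274 (0.0311 to 1.13), and both intervals include 1. The site at chr5:135484839-135485025 was rich in C/EBPα, with 426 units in DMSO and 411 in rosiglitazone, while PPARγ went from 2.64 to 23.3. Its C/EBPα ratio was 0.965 (0.805 to 1.16).

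Single sites combined the gains in several ways. Of 293 gaining sites with at least 20 tags of both MED1 and C/EBPα, 150 were at least 2-fold higher in MED1 and 87 in C/EBPα, and 38 in both, which is 25.3% of the former and 43.7% of the latter. At steady sites with as many tags, 178 and 60 of 605 were higher and 6 in both, 3.37% and 10.0%. A smaller share of steady sites was higher in each factor taken singly, so these overlaps cannot be compared directly. The log2 ratios of the 2 factors had a Spearman rho of -0.06 and a Pearson r of -0.06 over the 293 gaining sites and of -0.47 and -0.39 over the 605 steady sites, which share their libraries. For MED1 and CBP, 30 of 250 gaining sites were higher in both, 26.3% of the 114 higher in MED1 and 51.7% of the 58 higher in CBP. At steady sites 37 of 679 were higher in both, 21.9% of the 169 higher in MED1 and 23.3% of the 159 higher in CBP. Neither the overlap expected from the single shares nor the overlap over all PPARγ peaks was computed. Whether the gains go together was therefore not tested.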

How the data were processed

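ChIP-seq of 16 samples in 12 groups of antibody and treatment was deposited. The authors deposited a PPARγ list of 30588 peaks and a C/EBPα list of 30519, each with 8 columns of normalised tag signal. The submitters' processing notes name FastQC, Bowtie, HOMER, edgeR and build mm9, for which no version is listed there. For MED1, the treated column carries the name BRL, a code for rosiglitazone. The peak score and the focus ratio, a fraction, were deposited by the authors per peak; the score was not used as a measure. All signal values above 0 were whole multiples of a step per column (tolerance 0.02 steps), so tags were recovered in 100% of them. If scaled to 10 M tags, depths are 11.4 and 12.0 M for PPARγ in DMSO and rosiglitazone, 4.53 and 7.85 M for C/EBPα, 2.86 and 1.31 M for MED1 and 4.52 and 1.65 M for CBP.

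Ratios are rosiglitazone to DMSO tags summed over sites, as scaled by the authors, with exact 95% Clopper-Pearson intervals; ratios of ratios have Woolf or, over bins of tags, Mantel-Haenszel intervals. No count model was fitted, since each treatment has 1 column. Tags carry no molecular identifiers, and intervals cover counting error only. Calls need 20 tags of a factor and a 2-fold difference with a pseudocount of 1, which understates low sites. Named sites are the extremes of PPARγ, of the other factors' values and ratios, the groups with most sites and those beside the thresholds; none on chromosome 18 was named. Sites, sets and tests were chosen with earlier results of these data known. The intervals of the ratios were checked on simulated tags with counting error only, which cannot test the spread between libraries or cultures. Python 3.11.15, numpy 2.4.6, pandas 2.3.3 and scipy 1.17.1 were used.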

Additional observations from a re-analysis of the deposited data

How the results depend on the processing

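Of 75 alternatives to 12 results, 29 stayed within the counting interval (or 1.5 times the count), 46 moved and 0 reversed; the cause was not tested. The number of sites was 648 with 2 times the minimum, 3289 and 369 with log2 thresholds of 1.5 and 3, 617 with a pseudocount of 5 and 840 centred on the median of all peaks. With those same settings except the threshold of 1.5, the share with a C/EBPα peak was 65.4%, 42.8%, 55.8% and 47.3%, and 45.2% where at least 0.5 of the peak had to be shared. The MED1 ratio was 2.24 with 2 times the minimum, 2.24 with a pseudocount of 5, 2.13 centred and 1.92 in C/EBPα windows. Against steady sites it was 1.65, 1.57 and 1.35 in the first 3 of these, 1.31 against all other peaks and 1.44 matched. The CBP ratio was 1.55 with 2 times the minimum, 1.61 with a threshold of 3, 1.56 with a pseudocount of 5, 1.52 centred and 1.42 in C/EBPα windows. Against steady sites CBP was 1.12 (1.04 to 1.20) with a threshold of 3, 1.09 (1.04 to 1.13) with a pseudocount of 5, 1.06 (1.01 to 1.11) centred and 1.07 (1.04 to 1.10) against all other peaks, so its equality with steady sites depends on the rule. The C/EBPα ratio was 1.44 with 2 times the minimum, 1.17 and 1.65 with thresholds of 1.5 and 3, 1.49 and 1.27 with pseudocounts of 5 and 0.1, 1.45 centred and 1.36 without the 1% of sites with most tags. Against steady sites it was 1.50, 1.22, 1.72, 1.57, 1.31 and 1.58 in the first 6 of these. The share at least 2-fold higher in CBP was 31.0% with at least 10 tags and 19.4% with at least 30, and in C/EBPα 24.7% with a pseudocount of 5. Sites with another gaining site were 8.25% within 5 kb and 34.1% within 50 kb. No paired analysis was possible because the columns carry no replicate numbers, and no replicate could be left out for the same reason. Depth limits single sites, and 310 gaining sites reached 20 tags for CBP, 527 for C/EBPα and 545 for MED1.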
